A study of Mus musculus with 4 samples.

Results

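The nuclear genes of the respiratory chain were examined in ATAC-seq libraries of mouse heart, in which a transposase cuts open chromatin, so that the number of reads in a peak measures how accessible that region is. Of 21896 protein-coding RefSeq genes, 100 were members because their symbol begins with Nduf, Sdha, Sdhb, Sdhc, Sdhd, Uqcr, Cox4, Cox5, Cox6, Cox7, Cox8 or Atp5. Of the 87948 peaks in the deposited table, 145 lay within 1 kb of either end of a member and are the peaks described here. The symbols take in 12 assembly factors (Ndufaf and Sdhaf genes), which are not subunits of the finished complexes, and leave out Cyc1, which encodes cytochrome c1 of complex III. The hearts were taken at postnatal day 14 from 2 Carm1 mutant and 2 wild-type samples. Carm1 encodes a methyltransferase that works on arginines of histones and other proteins and serves as a coactivator of transcription. The labels name neither the Carm1 allele nor the cells in which it is altered, nor the strain, nor whether animals were pooled. Nothing in them says that the replicates came from separate animals. The p-values therefore rest on the spread between these libraries, estimated in part across all peaks.

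The respiratory chain sits in the inner mitochondrial membrane. Complexes I and II pass electrons from NADH and succinate to ubiquinone, complex III passes them on to cytochrome c and complex IV to oxygen; complexes I, III and IV pump protons, and complex V, the ATP synthase, uses the proton gradient to make ATP. Most subunits are encoded in the nucleus, and only these genes are described here. The heart makes nearly all of its ATP this way after birth, when cardiomyocytes turn from glycolysis to oxidative metabolism, and several complex IV subunits exist as a heart and muscle form beside a form made in most tissues. NRF1, GABP (an ETS factor), YY1 and the ERR receptors are known regulators of these genes in mammals.

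The libraries held between 15945420 and 19091969 counts in peaks, of which the 145 peaks took between 0.432% and 0.443%. All 10 cardiomyocyte markers looked at had a gene-end peak (a peak within 1 kb of an end of a protein-coding gene), with summed values of 1500 and 1338 CPM (counts scaled to a common library size with TMM factors) in the mutant and 1319 and 1221 CPM in the wild type. The only called peaks among their 25 were both at Actc1, cardiac alpha-actin, and both were lower in the mutant: 13.3 and 14.1 CPM in the mutant and 23.6 and 37.3 CPM in the wild type (log2 fold change -1.16, edgeR adjusted p = 0.00336), and a weak one with 0.91 and 1.20 CPM in the mutant and 2.66 and 3.35 CPM in the wild type (-1.51, edgeR adjusted p = 0.0326). The median over the 25 was 0.16. The calls made 8.0% of the 25, against 2.03% of all gene-end peaks. An unadjusted edgeR p under 0.05 was found in 7 (28.0%, against 11.1%). Both mutant libraries were above both wild-type libraries in 10 (40.0%, against 25.1% of all gene-end peaks) and below both in 4. Of 6 leukocyte markers, 5 (Adgre1, Csf1r, Cx3cr1, Lyz2 and Ptprc) had no gene-end peak. The remaining 1, Cd68, had a peak with 82.4 and 86.7 CPM in the mutant and 84.5 and 75.55 CPM in the wild type. Of 7 genes of liver, kidney or brain, Alb, Slc12a1 and Umod had no gene-end peak. The other 4 had 5 such peaks, which summed to 126.5 and 123.0 CPM in the mutant and 127.8 and 124.2 CPM in the wild type. The 15 gene-end peaks of endothelial markers summed to 217.8 and 201.2 CPM in the mutant and 291.4 and 217.6 CPM in the wild type, with wild-type replicate 1 above the other libraries. Their median log2 fold change was -0.25, only 2 of the 15 were above 0, and the Tie1 peak was called lower, with 15.9 and 13.2 CPM in the mutant and 28.2 and 20.02 CPM in the wild type (-0.72, edgeR adjusted p = 0.0375). Those of 7 fibroblast markers summed to 87.8 and 106.5 CPM in the mutant and 87.9 and 97.0 CPM in the wild type, and those of 6 mural markers to 122.8 and 122.2 CPM in the mutant and 114.7 and 109.1 CPM in the wild type. Mutant replicate 1 was above the other libraries across the gene-end peaks of the whole genome, where its log2 CPM, centred on each peak's mean over libraries, had a median of 0.07, against -0.02 in mutant replicate 2 and -0.0045 and -0.03 in the wild type. In tissue, a change in the share of a cell type and a change in accessibility per cell cannot be told apart, and the part of either in the values below was not tested.

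Promoter windows are shown for the genes on which the comparison of heart and general forms turns, and for Uqcrc1, the gene with the called peak. Each runs from 250 bases before to 50 bases after the gene start, from RefSeq on GRCm38.p6 (the assembly of mm10), 5′ to 3′ on the gene's strand. Cox7a1 lies at chr7:30183921-30184220 on the plus strand, Cox7a2 at chr9:79759804-79760103 on the minus strand, Cox8b at chr7:140900397-140900696 on the minus strand, Cox8a at chr19:7217567-7217866 on the minus strand, Cox6a1 at chr5:115348909-115349208 on the minus strand and Uqcrc1 at chr9:108936398-108936697 on the plus strand. Capitals mark matches to the motifs listed after the sequences, E-boxes apart.
Cox7a1: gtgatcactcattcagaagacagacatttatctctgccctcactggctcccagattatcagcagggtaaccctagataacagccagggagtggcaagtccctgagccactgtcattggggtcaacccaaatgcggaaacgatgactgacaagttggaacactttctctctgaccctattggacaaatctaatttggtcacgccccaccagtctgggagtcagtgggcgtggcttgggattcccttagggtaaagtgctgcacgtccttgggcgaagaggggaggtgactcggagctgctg
Cox7a2: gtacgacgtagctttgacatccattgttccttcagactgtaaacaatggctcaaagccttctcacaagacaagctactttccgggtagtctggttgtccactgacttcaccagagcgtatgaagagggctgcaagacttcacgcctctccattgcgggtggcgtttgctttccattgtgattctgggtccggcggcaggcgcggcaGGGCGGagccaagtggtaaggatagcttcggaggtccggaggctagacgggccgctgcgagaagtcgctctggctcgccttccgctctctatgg
Cox8b: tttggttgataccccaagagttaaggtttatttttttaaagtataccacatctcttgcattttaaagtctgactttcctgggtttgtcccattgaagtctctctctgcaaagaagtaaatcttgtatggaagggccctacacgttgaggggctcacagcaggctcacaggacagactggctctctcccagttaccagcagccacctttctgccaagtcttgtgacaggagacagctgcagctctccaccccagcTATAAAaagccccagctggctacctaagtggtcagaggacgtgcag
Cox8a: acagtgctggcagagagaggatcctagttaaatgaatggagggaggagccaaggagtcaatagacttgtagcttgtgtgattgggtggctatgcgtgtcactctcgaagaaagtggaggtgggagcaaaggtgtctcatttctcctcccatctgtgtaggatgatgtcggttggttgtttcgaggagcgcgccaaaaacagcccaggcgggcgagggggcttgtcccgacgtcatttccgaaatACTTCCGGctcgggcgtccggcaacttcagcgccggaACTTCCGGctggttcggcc
Cox6a1: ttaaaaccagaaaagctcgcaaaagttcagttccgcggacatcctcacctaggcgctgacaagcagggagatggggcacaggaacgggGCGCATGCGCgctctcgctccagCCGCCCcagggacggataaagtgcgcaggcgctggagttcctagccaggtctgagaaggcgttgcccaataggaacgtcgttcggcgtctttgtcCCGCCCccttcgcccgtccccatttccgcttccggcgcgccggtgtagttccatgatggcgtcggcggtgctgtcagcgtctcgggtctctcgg
Uqcrc1: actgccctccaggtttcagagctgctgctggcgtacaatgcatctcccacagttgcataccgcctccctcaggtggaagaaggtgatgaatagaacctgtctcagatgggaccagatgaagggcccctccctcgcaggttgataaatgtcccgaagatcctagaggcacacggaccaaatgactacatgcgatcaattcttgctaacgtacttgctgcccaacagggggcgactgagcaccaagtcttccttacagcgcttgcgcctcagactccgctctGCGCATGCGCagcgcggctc

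The Cox7a1 window, of the heart and muscle form, held none of the motifs marked. The Cox8b window, also of a heart and muscle form, held only TATAAA at bases 255 to 260, counted from the first base shown, whereas that of Cox8a, the general form, held the ETS motif at bases 245 to 252 and again at 282 to 289. Overlapping NRF1 matches on both strands lay at bases 89 to 98 in Cox6a1 and at bases 281 to 290 in Uqcrc1. CpG pairs numbered 7 and 2 in the Cox7a1 and Cox8b windows, against 20, 19 and 32 in the Cox7a2, Cox8a and Cox6a1 windows. Windows of Cox6a2 and of both Cox4 genes were not used here.

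The promoter windows were searched on both strands for motifs of known regulators, and the shares compared with those of all 17491 protein-coding genes with a window. The NRF1 motif GCGCATGCG was in 10 of the 82 member genes with a window (12.2%), against 2.61% of all. The YY1 motif AAGATGGCG was in 8 (9.76%, against 2.14%) and the ERR motif TCAAGGTCA in 2, Atp5g3 and Sdhd (2.44%, against 0.377%). The shares of the ETS motif CCGGAAGT (6.1% against 5.69%), the GC box GGGCGG (47.6% against 49.2%), the CRE TGACGTCA (4.88% against 2.54%) and the E-box CANNTG (70.7% against 72.1%) lay closer to the background. The MEF2 core, CTA and TAG with any 4 bases between, was in 2.44% against 4.01%, and TATAAA, added after the windows were seen, in 11.0% against 14.8%. CRE, ETS and other matches may overlap, the median GC content was 58.6% in the members and 56.3% in all, and a match is a description of the letters.

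**Figure D1:**
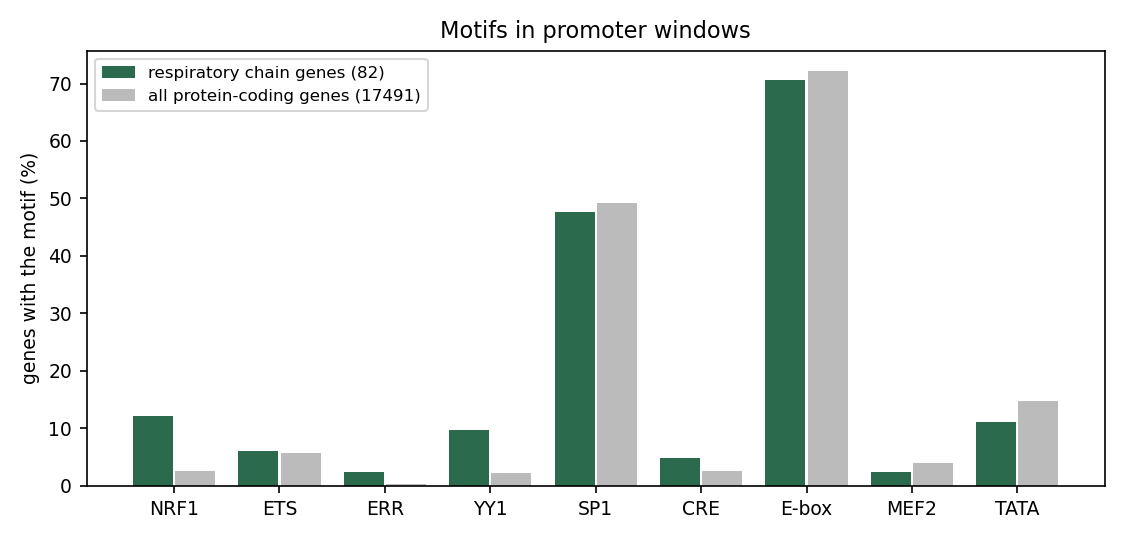
Share of genes (y axis, %) whose promoter window holds each motif (x axis), with the 82 respiratory chain genes left of all 17491 protein-coding genes. The NRF1 and YY1 motifs, at 12.2% and 9.76%, are above their shares of 2.61% and 2.14% in all genes, while the ETS, SP1 (GC box) and E-box shares are near them.

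Nearly all of the members had a peak at a gene end. At least 1 peak lay within 1 kb of 95 of the 100 genes: 63 genes had 1 peak, 20 had 2, 6 had 3 and 6 had 4. The 5 without such a peak were Cox7b2 and Cox8c, forms known from testis, the Ndufb4 copies Ndufb4b and Ndufb4c, and Cox7a2. The nearest peak was 152710 bp from an end of Cox7b2, 13243 bp from Cox8c, 26871 bp from Ndufb4b and 15770 bp from Ndufb4c. Cox7a2 is a matter of annotation: its RefSeq span reaches far upstream of its promoter, and a peak lay on its start, with 42.2 and 41.5 CPM in the mutant and 41.4 and 43.8 CPM in the wild type. The same held for the start of Cox5a, with 58.7 and 47.8 CPM in the mutant and 47.8 and 53.2 CPM in the wild type. The start of Atp5d also lies inside its RefSeq span. Its start peak had 56.3 and 66.6 CPM in the mutant and 57.9 and 58.1 CPM in the wild type. A weaker peak 598 bp from that start had 19.2 and 24.4 CPM in the mutant and 24.8 and 25.75 CPM in the wild type. These start peaks lie outside the 145, and none passed the test (edgeR adjusted p = 0.943 for Cox7a2, 0.812 for Cox5a, and 0.783 and 0.523 for Atp5d).

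Peak strength followed position in the gene. The start was known for 82 members, and 91 of the 145 peaks lay within 1 kb of the start of their member; their median level was 26.6 CPM and their median width 1174 bp. The 30 peaks of members with a known start that lay beyond 1 kb of it had a median level of 7.76 CPM. The other 24 peaks belonged to members without a start in the table used. For comparison, all 11900 start peaks of protein-coding genes had a median level of 21.3 CPM and the 16025 gene-end peaks one of 17.04 CPM.

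Many of these peaks lay at another gene as well. Of the 145 peaks, 66 (45.5%) also lay within 1 kb of an end of another protein-coding gene, against 16.8% of all gene-end peaks. Of the 91 start peaks, 30 lay within 1 kb of the start of a second gene as well. For that count no share over all start peaks is given. Atp5j, which encodes coupling factor 6 of the ATP synthase, shared its peak with Gabpa, which encodes the DNA-binding subunit of GABP. That peak had 101.8 and 98.3 CPM in the mutant and 103.4 and 99.8 CPM in the wild type, so the libraries of both genotypes overlapped. Counts in a shared peak cannot be split between its genes. None of the 66 shared peaks passed the test with edgeR, DESeq2 or limma voom, where 1 of the 79 unshared ones did (1.27%). Of the 66, 5 had an unadjusted edgeR p under 0.05 (7.58%). Among all shared gene-end peaks 1.22% passed with edgeR and 8.59% had such an unadjusted p. Among all unshared ones the shares were 2.2% and 11.6%.

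The comparison of Carm1 mutant with wild-type hearts asked whether the chromatin at these genes opened or closed in the mutant. A single peak of the 145 passed the threshold (edgeR quasi-likelihood test, Benjamini-Hochberg adjusted p under 0.05 over all peaks), and it was higher in the mutant. That is 0.69% of the members' peaks, where 5.5% of all peaks and 2.03% of all gene-end peaks passed; in the higher direction the background was 3.05% and 1.64%, and in the lower direction, in which no member passed, 2.45% and 0.393%. The difference between these shares was not tested. DESeq2 and limma voom also called 1 of the 145, and 12 had an unadjusted edgeR p under 0.05 (8.28%, against 21.8% of all peaks and 11.1% of gene-end peaks). At the 91 start peaks no peak passed with edgeR, DESeq2 or limma voom, 4 had an unadjusted edgeR p under 0.05 (8.5% of all start peaks did), and 1.26% of all start peaks passed with edgeR, 0.983% in the higher direction.

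The members' log2 fold changes (mutant over wild type throughout) centred near those of other gene ends. Their median was 0.04, as was the median over all gene-end peaks, and that over all peaks was -0.00069. The middle 50% of the members lay between -0.07 and 0.15, against -0.11 to 0.21 for all gene-end peaks and -0.30 to 0.29 for all peaks. The lowest was -0.76 and the highest 0.93. Both mutant libraries were above both wild-type libraries in 31 peaks (21.4%, against 25.1% of gene-end and 25.8% of all peaks) and below both in 25 (17.2%, against 16.6% and 25.7%), while the groups overlapped in 89.

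**Figure D2:**
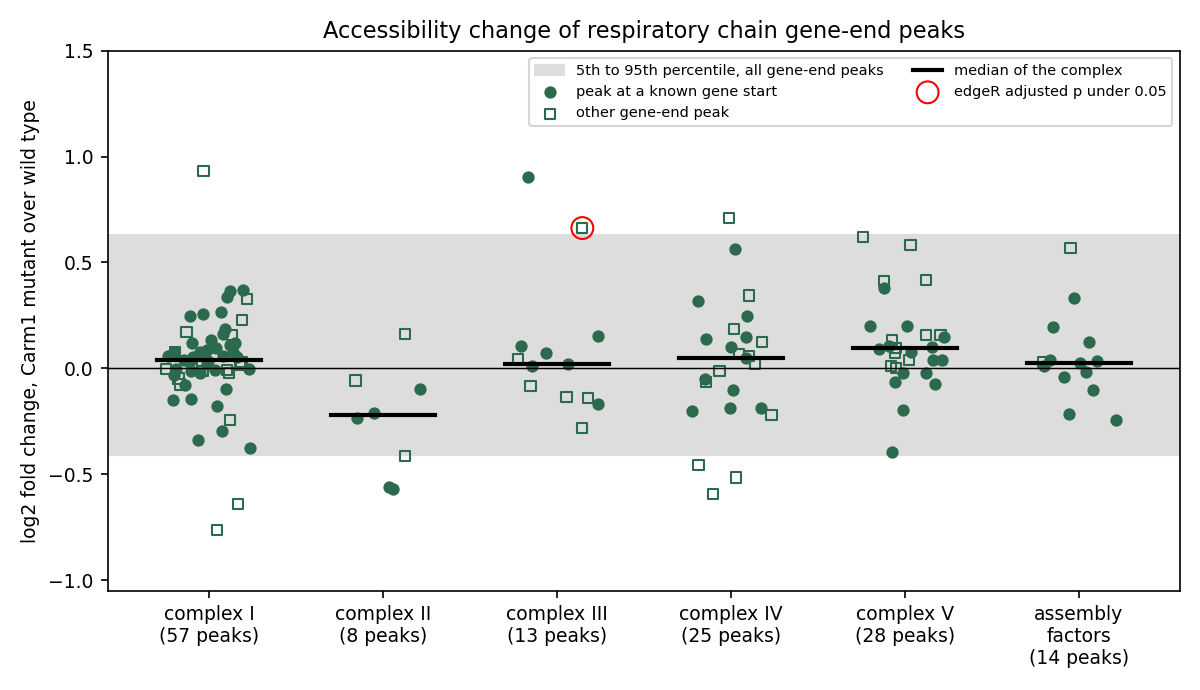
Log2 fold change of each of the 145 peaks (y axis, Carm1 mutant over wild type), grouped by complex (x axis); filled circles are peaks at a known gene start, open squares the other gene-end peaks, black lines the medians of each complex and the grey band the 5th to 95th percentile of all gene-end peaks. Most points lie within the band, the median of complex II is -0.22, and the ringed Uqcrc1 peak at 0.66 is the only 1 past the threshold.

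Most changes were small. The median absolute difference in log2 CPM between the genotype means was 0.11 over the 145 peaks, against 0.18 between the mutant libraries and 0.13 between the wild-type libraries. A mean of 2 libraries varies less than 1 library, so the first value would lie below the others with no difference between genotypes. Over all peaks the genotype means differed by a median of 0.29, with 0.28 between the mutant and 0.23 between the wild-type libraries. For 91 of the 145 peaks (62.8%, against 49.2% of all gene-end peaks) the 95% interval of the log2 fold change, derived from the test statistic, lay wholly within a fold of 1.5 in either direction. The share moved with peak strength: it was 79 of the 85 peaks with a mean of at least 20 CPM (92.9%, against 85.2% of all gene-end peaks that strong) and 12 of the 60 weaker ones, where larger changes could be missed. None of those 85 passed with edgeR, DESeq2 or limma voom, and 3 had an unadjusted edgeR p under 0.05. Of all gene-end peaks that strong, 1.03% passed and 6.8% had such an unadjusted p. The called peak, with a mean of 19.97 CPM, lay just under this split, so the absence of a call among the 85 depends on where the split was set.

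Complex I, the largest, had 57 peaks at 37 of its 39 genes, and none passed the threshold with edgeR, DESeq2 or limma voom. An unadjusted edgeR p under 0.05 was found in 3 (5.26%, against 11.1% of all gene-end peaks). Its median log2 fold change was 0.04, with 11 peaks wholly higher (19.3%, against 25.1% of all gene-end peaks) and 6 wholly lower in the mutant (10.5%, against 16.6%). The highest values per kb of peak width were at Ndufv1, which encodes the subunit that binds NADH and FMN, and at Ndufb5, an accessory subunit of the membrane arm. The Ndufv1 start peak had 82.9 and 83.1 CPM in the mutant and 73.2 and 88.5 CPM in the wild type (log2 fold change 0.04 with an SE of 0.13, edgeR adjusted p = 0.908). That at Ndufb5 had 101.5 and 87.1 CPM in the mutant and 82.6 and 98.5 CPM in the wild type. In both genes the wild-type libraries spanned at least 1 of the mutant values, and the interval at Ndufv1 ran from -0.24 to 0.32.

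The complex I peaks with the most extreme fold changes were weak or lay away from the start. Ndufs4 encodes an accessory subunit needed for full complex I activity, and mice without it are a model of Leigh syndrome. A peak 504 bp inside its far end (chromosome 13, 114288299 to 114288898) had 13.9 and 9.65 CPM in the mutant, both below the 17.3 and 19.5 CPM of the wild type (log2 fold change -0.64 with an SE of 0.21, edgeR adjusted p = 0.0776). The value turned on the mutant libraries: without mutant replicate 1 it passed (log2 fold change -0.93, edgeR adjusted p = 0.00351), and without mutant replicate 2 it was -0.405 (edgeR adjusted p = 0.248). Nor did it pass without either wild-type library (edgeR adjusted p = 0.192 and 0.420). At the Ndufs4 start the values were 14.2 and 13.2 CPM in the mutant and 12.5 and 12.0 CPM in the wild type, so the start and the far end leaned in opposite directions. Ndufa13, also known as GRIM-19, had a weak far-end peak, shared with Yjefn3, with 4.56 and 4.86 CPM in the mutant against 2.72 and 2.22 CPM in the wild type (log2 fold change 0.93 with an SE of 0.32, edgeR adjusted p = 0.0904). Its start peak, shared with Tssk6, overlapped between the genotypes, with 78.8 and 81.5 CPM in the mutant and 77.7 and 80.3 CPM in the wild type. The lowest value of all, -0.76 at a far-end peak of Ndufa8, rested on 1.40 and 0.95 CPM in the mutant and 2.09 and 1.91 CPM in the wild type (SE 0.42, edgeR adjusted p = 0.299).

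Of the 3 members on the X chromosome, Ndufa1 and Ndufb11 belong to complex I and Cox7b to complex IV. Their 4 peaks were among the weaker ones, with means from 3.92 to 10.9 CPM. The Ndufa1 peak had 5.78 and 7.82 CPM in the mutant and 7.98 and 7.12 CPM in the wild type, the stronger Ndufb11 peak 11.5 and 10.4 in the mutant against 10.4 and 10.8 CPM in the wild type, and that of Cox7b 10.6 and 11.6 in the mutant against 9.11 and 12.3 CPM in the wild type. In these 3 peaks the genotypes overlapped. The weaker Ndufb11 peak did not, with 4.87 and 3.98 CPM in the mutant and 3.34 and 3.51 CPM in the wild type (log2 fold change 0.37, edgeR adjusted p = 0.524). None of the 4 passed with edgeR, DESeq2 or limma voom, and none had an unadjusted edgeR p under 0.05. All peaks on X summed to 13510 and 14210 CPM in the mutant and 12590 and 12700 CPM in the wild type. Those on Y summed to 233.2 and 142.6 CPM in the mutant and 131.3 and 74.0 CPM in the wild type. Whether the sex of the animals bears on the X values was not tested.

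Complex II, succinate dehydrogenase, is built from 4 nuclear subunits and has none from the mitochondrial genome. Its 8 peaks had a median log2 fold change of -0.22, the lowest of the complexes, and in 5 of them both mutant libraries were below both wild-type libraries. That is 62.5%, where 16.6% of all gene-end peaks lay so, but the 8 peaks come from 4 genes and none passed the threshold with edgeR, DESeq2 or limma voom. An unadjusted edgeR p under 0.05 was found in 1 (12.5%, against 11.1% of all gene-end peaks). The main start peak of Sdhb, the iron-sulfur subunit (chromosome 4, 140960688 to 140962245), had 50.5 and 49.97 CPM in the mutant and 55.2 and 62.9 CPM in the wild type (log2 fold change -0.23 with an SE of 0.14, edgeR adjusted p = 0.345). Sdha, the flavoprotein subunit that oxidizes succinate, had 28.1 and 25.1 CPM in the mutant and 29.7 and 31.9 CPM in the wild type at its start (log2 fold change -0.21, SE 0.16). Both pairs were separate, with the mutant lower.

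The membrane anchors of complex II, Sdhc and Sdhd, were less uniform. At the start of Sdhd the main peak had 50.2 and 42.6 CPM in the mutant and 48.9 and 50.4 CPM in the wild type, which overlap, while a weaker peak inside the gene had 6.27 and 7.38 CPM in the mutant and 11.0 and 9.13 CPM in the wild type (log2 fold change -0.56 with an SE of 0.24, edgeR adjusted p = 0.178). The main Sdhc peak went the other way, with 28.7 and 32.9 CPM in the mutant and 24.8 and 30.2 CPM in the wild type. It was the only complex II peak with a positive log2 fold change (0.16, SE 0.17).

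Complex III had 13 peaks at its 8 genes and held the called peak, at Uqcrc1. Uqcrc1 encodes a core protein of the complex. The peak (chromosome 9, 108949152 to 108950669) lay over the end of the gene opposite its start and had 24.3 and 24.7 CPM in the mutant and 15.96 and 14.97 CPM in the wild type. The mean was 24.5 ± 0.28 CPM in the mutant and 15.5 ± 0.70 CPM in the wild type (SD, n = 2 each), a fold of 1.58 (log2 fold change 0.66, SE 0.18, 95% interval 0.29 to 1.03, edgeR adjusted p = 0.0326). Both mutant libraries were above both wild-type libraries. The call held with DESeq2 (adjusted p = 0.0475) and limma voom (adjusted p = 0.0408) but not when either wild-type library was left out: the edgeR adjusted p was 0.166 without replicate 1 and 0.276 without replicate 2, at log2 fold changes of 0.71 and 0.62.

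The other peaks of the Uqcrc1 locus were lower in the mutant or overlapped between the genotypes. Its start peak, over the promoter window printed above, had 33.8 and 29.2 CPM in the mutant, both below the 35.0 and 35.8 CPM of the wild type (log2 fold change -0.17 with an SE of 0.15, edgeR adjusted p = 0.566). A small peak just inside the far end had 2.56 and 1.96 CPM in the mutant and 2.60 and 2.89 CPM in the wild type. A peak beyond it had 4.02 and 3.22 CPM in the mutant and 3.28 and 2.99 CPM in the wild type, and overlapped between genotypes. The nearest other gene end, 2917 bp from the called peak, is that of Col7a1, a collagen gene, whose annotated start faces this region, so the gene to which the peak belongs cannot be told from its position.

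**Figure D3:**
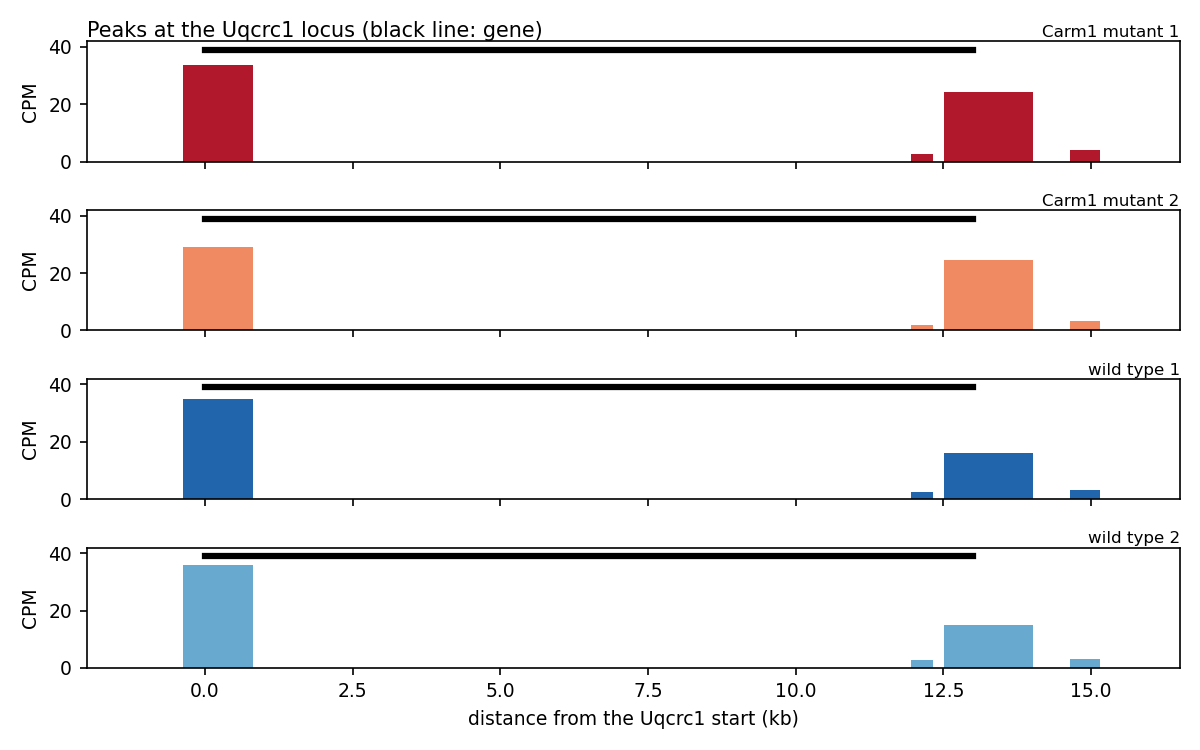
Accessibility at Uqcrc1 in each library (y axis, CPM of each peak; x axis, distance from the gene start in kb; bar width is peak width; the black line is the gene). The peak over the far end stands at 24.3 and 24.7 CPM in the Carm1 mutant libraries and at 15.96 and 14.97 CPM in the wild-type libraries, while the start peak is not higher in the mutant.

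No other complex III peak passed, and 1 more had an unadjusted edgeR p under 0.05. With the called peak that made 2 of the 13 (15.4%, against 11.1% of all gene-end peaks). Uqcrfs1, the Rieske iron-sulfur protein, had 33.8 and 34.8 CPM in the mutant and 30.8 and 34.5 CPM in the wild type at its start (log2 fold change 0.07, 95% interval -0.25 to 0.39). Uqcrq, a small subunit, had 62.8 and 69.0 CPM in the mutant and 65.2 and 74.2 CPM in the wild type. Uqcr11, another small subunit, had a very weak peak inside the gene with 2.74 and 3.03 CPM in the mutant and 1.42 and 1.65 CPM in the wild type (log2 fold change 0.91 with an SE of 0.38, edgeR adjusted p = 0.161). Its main peak, with 18.6 and 20.1 CPM in the mutant and 15.6 and 19.2 CPM in the wild type, overlapped between the genotypes.

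Complex IV, cytochrome c oxidase, had 25 peaks at 17 of the 20 genes counted with it, Ndufa4 and Ndufa4l2 included, since Ndufa4 is now placed in this complex. Its median log2 fold change was 0.05, and no peak passed with edgeR, DESeq2 or limma voom. An unadjusted edgeR p under 0.05 was found in 1 (4.0%, against 11.1% of all gene-end peaks). Levels of different genes are compared here per kb of peak width. Cox8a, the general form of subunit 8, had 56.6 and 68.7 CPM per kb at its start in the mutant and 62.4 and 67.3 CPM per kb in the wild type, against 11.4 and 8.63 CPM per kb in the mutant and 8.89 and 9.80 CPM per kb in the wild type at Cox8b, the heart and muscle form. The general form was thus the more open in each of the 4 libraries. The Cox8b peak is broad, 2392 bp, covers the whole gene and is shared with Psmd13, so it is not a measure of Cox8b alone.

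Subunits 6a and 7a had a different order. Cox6a2, the heart and muscle form, had 27.9 and 19.6 CPM per kb in the mutant and 22.1 and 23.5 CPM per kb in the wild type, above the general form Cox6a1 with 17.2 and 16.3 in the mutant and 18.1 and 19.9 in the wild type in each library. That order rests on the division by peak width, 1029 bp at Cox6a2 and 1292 bp at Cox6a1: in CPM not divided by width, Cox6a2 was the lower in 3 of the 4 libraries, and its peak is shared with Itgad. Cox7a1, the heart and muscle form, had 30.0 and 26.5 CPM per kb in the mutant and 29.2 and 35.9 CPM per kb in the wild type. Cox7a2, the general form, stood at 34.4 and 33.8 CPM per kb in the mutant and 33.7 and 35.7 CPM per kb in the wild type, above Cox7a1 in 3 of the 4 libraries and just below it in wild-type replicate 2. Cox7a2l, which takes part in joining complexes III and IV, was higher, at 61.8 and 46.4 CPM per kb in the mutant and 49.2 and 48.6 CPM per kb in the wild type.

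Between genotypes these isoform peaks overlapped or differed little. Cox7a1 had 27.2 and 23.98 CPM in the mutant and 26.4 and 32.5 CPM in the wild type (log2 fold change -0.20 with an SE of 0.17, edgeR adjusted p = 0.524). Cox6a2 had 28.7 and 20.1 CPM in the mutant and 22.8 and 24.2 CPM in the wild type, and Cox8b 27.4 and 20.6 CPM in the mutant and 21.3 and 23.4 CPM in the wild type (log2 fold changes 0.06 and 0.10, edgeR adjusted p = 0.896 and 0.795). In Cox6a2 and Cox8b the mutant libraries enclosed both wild-type values. Of the general forms, Cox6a1 had 22.2 and 21.0 CPM in the mutant, both below 23.4 and 25.7 CPM in the wild type (log2 fold change -0.19 with an SE of 0.17, edgeR adjusted p = 0.571), and Cox8a overlapped, at 51.3 and 62.3 CPM in the mutant and 56.6 and 61.1 CPM in the wild type.

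**Figure D4:**
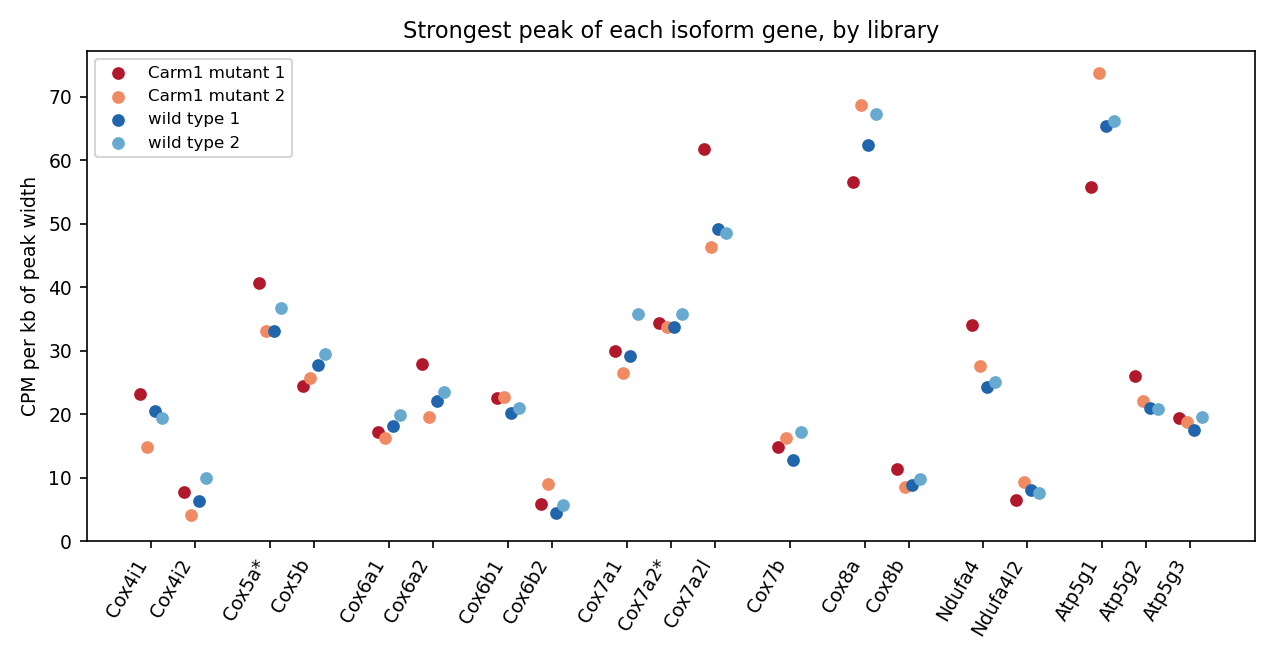
CPM per kb of peak width (y axis) of the strongest peak of each gene in the isoform sets (x axis), 1 point per library; for the genes marked with an asterisk, Cox5a and Cox7a2, the start peak outside the 145 is shown. Cox8a stands far above Cox8b in every library and Cox6a2 above Cox6a1 (per kb of width; not in undivided CPM), and within most genes the mutant and wild-type points mix.

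In the other complex IV sets the genotypes overlapped for some genes and were narrowly separate for others. Cox4i1, the main form of subunit 4, had 35.5 and 22.8 CPM in the mutant, on either side of the 31.3 and 29.8 CPM of the wild type, and Cox4i2, a form known from lung, had 2.49 and 1.33 CPM in the mutant and 2.04 and 3.20 CPM in the wild type. Cox6b1 had 20.9 and 21.1 CPM in the mutant and 18.7 and 19.4 CPM in the wild type, a separate but small difference (log2 fold change 0.14, SE 0.18), and Cox6b2, known from testis, had 2.92 and 4.48 CPM in the mutant and 2.21 and 2.79 CPM in the wild type. Cox5b had 34.2 and 35.8 CPM in the mutant, both below the 38.8 and 41.0 CPM of the wild type (log2 fold change -0.19 with an SE of 0.15, edgeR adjusted p = 0.495). The only Cox5a peak within 1 kb of its ends lay 157 bp past the far end and was weak, with 1.46 and 1.451 CPM in the mutant and 2.72 and 1.70 CPM in the wild type (log2 fold change -0.59, SE 0.41).

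Ndufa4, whose peak is shared with Phf14, had 43.4 and 35.3 CPM in the mutant, both above the 31.1 and 32.1 CPM of the wild type (log2 fold change 0.32 with an SE of 0.16, edgeR adjusted p = 0.240). Without mutant replicate 2 it passed (log2 fold change 0.46, edgeR adjusted p = 0.0366), while without mutant replicate 1 it was 0.16 (edgeR adjusted p = 0.630). Its paralog Ndufa4l2 is known to be induced by hypoxia. The strongest Ndufa4l2 peak, inside the gene and shared with Shmt2, had 17.03 and 24.6 CPM in the mutant and 21.1 and 19.97 CPM in the wild type, and a weaker peak 569 bp outside the gene, shared with Stac3, had 6.81 and 6.88 CPM in the mutant against 4.13 and 4.23 CPM in the wild type (log2 fold change 0.71 with an SE of 0.27, edgeR adjusted p = 0.125). The first overlapped between genotypes and the second did not.

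Complex V had 28 peaks at 17 genes, with the highest median log2 fold change of the complexes, 0.09. In 10 of the 28 both mutant libraries were above both wild-type libraries (35.7%, against 25.1% of all gene-end peaks), and none passed with edgeR, DESeq2 or limma voom. An unadjusted edgeR p under 0.05 was found in 4 (14.3%, against 11.1% of all gene-end peaks). The 3 genes for subunit c, the rotor ring, encode the same mature protein. Atp5g1 had the strongest of their peaks, with 90.1 and 119 CPM in the mutant on either side of the 105.4 and 106.8 CPM of the wild type. Atp5g2 had 76.8 and 65.4 CPM in the mutant, both above the 62.4 and 61.6 CPM of the wild type (log2 fold change 0.20 with an SE of 0.14, edgeR adjusted p = 0.421), and Atp5g3 36.7 and 35.5 CPM in the mutant and 33.1 and 37.1 CPM in the wild type.

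Chosen here after their values were seen, 2 complex V start peaks had an unadjusted edgeR p under 0.05 and lay in opposite directions. The other 2 complex V peaks with such a p were both of Atp5h, away from its start, and both higher in the mutant. Their log2 fold changes were 0.58 and 0.42 (edgeR adjusted p = 0.2025 and 0.2285). Atp5e, the epsilon subunit of the central stalk, whose peak is shared with Prelid3b, had 27.4 and 29.6 CPM in the mutant, both below the 36.7 and 38.3 CPM of the wild type (log2 fold change -0.40 with an SE of 0.15, edgeR adjusted p = 0.130). Atp5l, subunit g of the membrane part, had 46.6 and 35.7 CPM in the mutant, both above the 30.3 and 32.9 CPM of the wild type (log2 fold change 0.38 with an SE of 0.16, edgeR adjusted p = 0.168). Without mutant replicate 2 it passed (log2 fold change 0.56, edgeR adjusted p = 0.00669), while without mutant replicate 1 it was 0.17 (edgeR adjusted p = 0.587). The widest and strongest peak of all 145, 9546 bp at the far end of Atp5d, is shared with Midn; it had 268.6 and 269.1 CPM in the mutant and 260.9 and 242.4 CPM in the wild type. The groups were separate there, by a log2 fold change of 0.10 (SE 0.11).

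The 12 assembly factors among the members, which help to build complexes I and II, all had a start or gene-end peak, 14 in all, and none passed with edgeR, DESeq2 or limma voom. An unadjusted edgeR p under 0.05 was found in 1 (7.14%, against 11.1% of all gene-end peaks). Per kb the strongest were Sdhaf1 and Sdhaf4, both factors of complex II. Sdhaf1 had 39.8 and 43.2 CPM in the mutant and 44.4 and 44.7 CPM in the wild type, and Sdhaf4 16.7 and 15.8 CPM in the mutant and 19.7 and 18.8 CPM in the wild type (log2 fold changes -0.10 and -0.24, edgeR adjusted p = 0.733 and 0.474). In both the mutant libraries were the lower pair.

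Summed over its peaks, no complex departed far from the wild type. Complex I summed to 1773 and 1696 CPM in the mutant and 1666 and 1678 CPM in the wild type, and complex V to 1238 and 1208 CPM in the mutant and 1190 and 1157 CPM in the wild type. Both were slightly higher in each mutant library. For complex I this rests on a peak 861 bp beyond the far end of Ndufs7, shared with Dazap1 and Gamt. It had 122.1 and 146.7 CPM in the mutant and 118.4 and 110.9 CPM in the wild type. Without that peak the complex I sums would overlap between the genotypes. Complex II was lower in each, at 171.5 and 165.6 CPM in the mutant against 179.4 and 193.4 CPM in the wild type. Complex III overlapped, at 421.5 and 401.4 CPM in the mutant and 383.3 and 416.2 CPM in the wild type. So did complex IV, at 504.4 and 472.0 CPM in the mutant and 473.2 and 492.0 CPM in the wild type, and the assembly factors, at 405.5 and 401.4 CPM in the mutant and 409.9 and 395.3 CPM in the wild type. These sums were not tested. With plain library totals in place of TMM, complexes I and V overlapped as well, the assembly factors were lower in both mutant libraries, and complex II stayed lower in both. The median log2 fold change of complex II lay between -0.29 and -0.15 and that of complex V between 0.05 and 0.15 over all scalings, tools and left-out libraries tried.

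**Figure D5:**
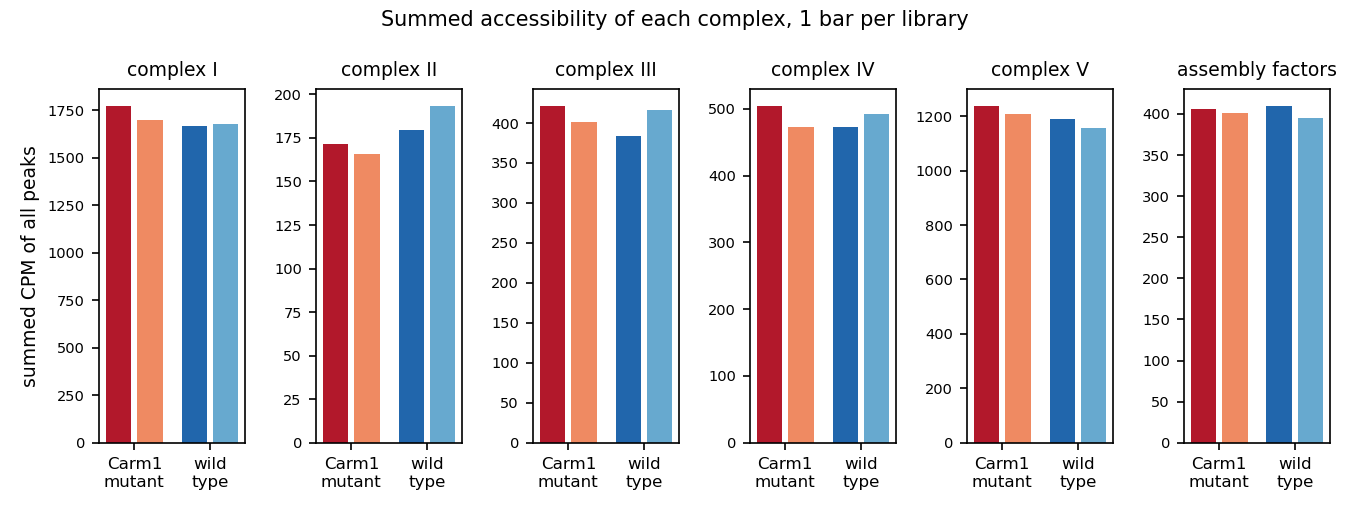
Summed CPM of all peaks of each complex (y axis, from 0, its own scale in each panel), 1 bar per library, with the 2 Carm1 mutant libraries left of the 2 wild-type libraries. Complex II is the only panel in which both mutant bars, 171.5 and 165.6 CPM, lie below both wild-type bars.

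Other genes of the pathway were looked at in the same way. A list of 38 further assembly and electron transfer genes, Cyc1 and Cycs included, had 51 gene-end peaks at 37 genes (Atpaf2 had none). Of these peaks 1 rose and none fell (1.96%, against 2.03% of all gene-end peaks), with a median of 0.02 on the log2 scale. Of the 51, 4 had an unadjusted edgeR p under 0.05 (7.84%, against 11.1% of all gene-end peaks). The riser was a peak at the far end of Cox19, a copper-handling assembly factor of complex IV (chromosome 5, 139337787 to 139338343), with 12.4 and 9.97 CPM in the mutant and 6.85 and 5.63 CPM in the wild type (log2 fold change 0.84 with an SE of 0.24, edgeR adjusted p = 0.0461), and neither DESeq2 nor limma voom called it. The call was lost in 3 of the 4 fits with 1 library left out (leaving out wild-type replicate 1 gave an edgeR adjusted p of 0.114, wild-type replicate 2 0.327 and mutant replicate 1 0.142). The other 3 Cox19 peaks did not pass, and in each both mutant libraries were above both wild-type libraries. The strongest, on the start, had 27.7 and 24.42 CPM in the mutant and 21.6 and 24.41 CPM in the wild type. A weaker one near the start had 10.6 and 15.1 CPM in the mutant and 8.03 and 6.66 CPM in the wild type (log2 fold change 0.80, edgeR adjusted p = 0.0540), and a second one near the far end had 9.19 and 6.25 CPM in the mutant and 5.26 and 4.34 CPM in the wild type (0.69, edgeR adjusted p = 0.148). The 18 genes of the TCA cycle and pyruvate dehydrogenase had 27 peaks with a median of 0.06, and the 19 regulators, such as Nrf1, Gabpa, Tfam and Ppargc1a, had 25 peaks at 17 genes (Gabpb1 and Mef2c had none) with a median of 0.05. No peak of either list passed with edgeR, DESeq2 or limma voom; 1 and 4 had an unadjusted edgeR p under 0.05.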

How the data were processed

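ATAC-seq libraries came from the hearts of 2 Carm1 mutant and 2 wild-type mouse samples. The authors deposited raw counts per peak, whole numbers without normalization. FastQC, Bowtie2 (no versions) and the build mm10 are named per the submitters' processing notes. Not given in the sources used here are the peak caller, read filters, duplicate handling and any transposase shift, all of which bear on which reads a peak holds. Columns matched sample titles. Peaks were tied to ends of RefSeq genes of GRCm38.p6, and starts and strands came from its promoter table. Coordinates are as in the deposited table.

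All 87948 peaks were fitted with edgeR 4.0.16 in R 4.3.3 (TMM, filterByExpr, which removed 0 peaks, quasi-likelihood test, a single genotype term, Benjamini-Hochberg over all peaks). The procedure was tested on simulated data. Alternatives were RLE factors, library totals, offsets by cyclic loess, no filter or a mean CPM of at least 2, limma voom 3.58.1, DESeq2 1.42.0, a threshold of 0.1, each library left out, a replicate block, other distances and sums per gene. Peaks named are called peaks, isoform sets, the 2 strongest genes per kb of each complex, the 3 highest and 3 lowest fold changes and genes without a peak; the others named were chosen after their values were seen. The members and lists were chosen with earlier results of these data known. Standard errors were derived from the test statistic. Each peak had 2 residual degrees of freedom and the test 20.67, because edgeR estimates the spread of a peak in part from all peaks. The intervals and standard errors rest on this.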

Additional observations from a re-analysis of the deposited data

How the results depend on the processing

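The Uqcrc1 peak was called under RLE factors, library totals, cyclic loess offsets, both filters, DESeq2, limma voom, the replicate block and without either mutant library, with log2 fold changes from 0.63 to 0.67, and not without either wild-type library. The number of members' peaks past the threshold was 1 in the analysis reported, 3 with the replicate block, 3 at an adjusted p of 0.1, 5 within 5 kb of a gene end, 0 at gene starts and 0 with counts summed per gene (15 of all 13313 genes were called there), and between 0 and 4 with 1 library left out. Over all peaks it was 4839, against 2373 with DESeq2, 9724 with the replicate block, 8951 at 0.1 and 1006 to 8439 with 1 library left out. For the 3 pathway lists together it was 1, against 0 with library totals, a mean CPM of at least 2, DESeq2 or limma voom, at gene starts and per gene, 2 with cyclic loess, 4 with the block, 4 at 0.1, 3 within 5 kb and 0 to 6 with 1 library left out. The median log2 fold change of the members was 0.04, 0.0031 with library totals, and 0.0040 to 0.074 with 1 library left out; the lowest was without mutant replicate 1 and the highest without mutant replicate 2. The cause of these changes was not tested. The replicate numbers are not known to pair the libraries (deviations of same-numbered libraries correlated at 0.108 over peaks, with 2 pairs), so the block is no check of an effect. Fits without a library leave 1 alone in its group, assumed to vary like the other group. Among the 33 named peaks, the sign of a value that passed in neither fit turned for 1 peak each with library totals, loess offsets and limma voom, and for 3 to 6 with 1 library left out. Of 145 peaks, the 60 under 20 CPM are where depth limits what could be seen.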

Other observations

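Within 5 kb of a member's ends, 5 of 288 peaks passed the threshold (1.74%, against 3.3% of all peaks that close to any protein-coding gene). Of these, 4 lay beyond 1 kb and are given here after their values were seen; 3 were higher in the mutant. A peak 2139 bp from Ndufb9 and near Mtss1 (chromosome 15, 58941655 to 58942115) had 5.90 and 4.61 CPM in the mutant and 1.64 and 2.79 CPM in the wild type (log2 fold change 1.24 with an SE of 0.34, edgeR adjusted p = 0.0365). A peak 4878 bp from Ndufa11 (chromosome 17, 56729126 to 56729469) had 4.14 and 4.23 CPM in the mutant and 1.75 and 1.08 CPM in the wild type (log2 fold change 1.56 with an SE of 0.37, edgeR adjusted p = 0.0186). A peak 1204 bp from Atp5d and near Cbarp had 5.23 and 5.74 CPM in the mutant against 2.49 and 2.79 CPM in the wild type (edgeR adjusted p = 0.0467). The peak that was lower, 3321 bp from Ndufa5 and near Iqub (chromosome 6, 24514816 to 24515341), had 5.41 and 6.25 CPM in the mutant and 10.6 and 10.2 CPM in the wild type (log2 fold change -0.84 with an SE of 0.24, edgeR adjusted p = 0.0463). Each of the 4 calls was lost in at least 1 fit with 1 library left out: the highest edgeR adjusted p was 0.278 for Ndufb9, 0.199 for Ndufa11, 0.228 for Atp5d and 0.210 for Ndufa5, each without a wild-type library. All 4 were weak beside the start peaks, and 3 of the 4 had another protein-coding gene end within 5 kb.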
